A study of Homo sapiens with 6 samples.

Results

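Kruppel-like factors (KLFs) are transcription factors that bind DNA through a block of zinc fingers at their C terminus. The members considered here are KLF2, KLF3, KLF4, KLF5, KLF6, KLF7, KLF9, KLF10, KLF11 and KLF13. Their probe sets were chosen by gene symbol. Every probe set on the array that was annotated to exactly 1 gene, and to 1 of these 10, was taken, whatever its signal. This gave 32 of the 49372 probe sets, from 10 of the 18132 genes with such probe sets. Each KLF gene had more than 1 probe set. Probe positions were not used, so probe sets of a gene may share target sequence, and they are not treated as replicates of each other.

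KLF proteins recognise GC-rich and CACCC-type sequences, which they share with the related SP factors, and they act as activators or repressors according to the proteins that their N-terminal parts bind. KLF2, KLF4, KLF5, KLF6 and KLF7 are mostly described as activators, KLF9, KLF10, KLF11 and KLF13 as factors that recruit the SIN3A corepressor, and KLF3 as a repressor that works through CTBP proteins. In airway and alveolar epithelium they are known as regulators of differentiation, proliferation and stress responses, and the cell cycle inhibitor gene CDKN1A is a long-studied target of several of them.

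The RNA came from A549, an established human lung adenocarcinoma cell line, and was read on 1-colour expression arrays. Per the labels, 3 arrays carried RNA of cells given a scrambled control and 3 carried RNA of cells in which LINC00525, a long non-coding RNA, had been silenced. Titles abbreviate both treatments with "sh" whereas the treatment text speaks of siRNA, and the genotype fields of silenced replicates 2 and 3 name LINC00526 and LINC00527, so the titles were followed. No time after treatment is given, nor whether replicates were separate cultures, so the p-values rest on the variation among these 6 arrays, and that variation may be technical. Values are log2 signals after robust multi-array averaging (RMA), and differences are silenced minus control, with the standard error of the limma fit. A probe set is called higher or lower where its adjusted p, over all 49293 probe sets that are not array controls, lies under 0.05.

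The single LINC00525 probe set read 3.86, 3.74 and 3.97 on control arrays and 3.67, 3.45 and 3.54 on silenced arrays. The groups did not overlap, and the difference was -0.30 ± 0.075 (limma, adjusted p = 0.0422; exact permutation p = 0.1, the smallest that 3 against 3 arrays allow). This signal is dim, below the highest of the 17 Tag probe sets (mean 4.65), which match no human gene and serve here as a gauge of background. The call was lost without control replicate 1, control replicate 3, silenced replicate 2 or silenced replicate 3, with adjusted p up to 0.124. Correlations between arrays were 0.9983 to 0.9988 within groups and 0.996 to 0.9963 between them. By their brightest probe set, 6 of 6 epithelial marker genes lay above the Tag probe sets, 4 of 7 of alveolar type II cells, 3 of 5 of leukocytes (CD14, CD68 and CD79A; PTPRC and CD3E did not), 1 of 4 of endothelium and 1 of 5 of fibroblasts. Of 17 epithelial probe sets, 1 was higher (KRT19, 0.29) and 2 were lower (both KRT8, a keratin, -0.21 and -0.16). Both KRT8 calls were lost in at least 5 of the 6 fits that left out an array. KRT19 came to 0.01 with arrays scaled to the hybridization controls. Summed over its 5 genes, the leukocyte list read 7.86 to 7.95 (log2) on control and 8.07 to 8.21 on silenced arrays, with CD68, a lysosomal protein of macrophages that other cells also make, as its 1 called gene (0.61, limma adjusted p = 0.000521). The alveolar type II list read 7.88 to 7.96 and 8.0 to 8.02, with LAMP3, a lysosomal membrane protein, as its 1 called gene (0.79, limma adjusted p = 7.50e-05), at signals of 3.15 and 3.93 that are below the brightest Tag probe set in both groups. The part of either list in the KLF results was not tested. The 18 hybridization control probe sets were higher on silenced arrays by 0.28 and the 27 poly-A spike-ins by 0.13. The calls below are therefore also given after scaling to each.

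Of the 32 KLF probe sets, 10 were higher in the silenced cells, 0 were lower and 22 did not pass the threshold in limma. The 10 make up 31.2% of these 32, where 4.59% of all probe sets tested were called higher and 5.25% lower. The 10 genes were chosen with earlier results of these data known. The 7 other KLF genes measured had 0 calls in 18 probe sets. At an unadjusted p under 0.05, 14 of the 32 KLF probe sets were higher and 1 was lower, where 10.2% and 14.5% of all probe sets were. The probe sets that rose belonged to 5 genes: KLF2, KLF6, KLF9, KLF10 and KLF11. Over all 18132 genes, 7.10% had a probe set called higher and 8.84% had one called lower. KLF3, KLF4, KLF5, KLF7 and KLF13 had none that passed. The median KLF difference was 0.14, against -0.01 over all probe sets. Silenced and control arrays did not overlap for 15 KLF probe sets with higher silenced values and 1 with lower ones, where 11.8% and 16.8% of all probe sets separated in these directions. In RNA from whole cultures, more cells that make a transcript and more of it per cell cannot be told apart.

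The rises were modest. Only the 3 called KLF6 probe sets reached 1.5-fold, and the smallest called KLF difference was 0.24. All 10 called probe sets had a mean signal above the brightest Tag probe set, as did 15 of the uncalled ones. The other 7 KLF probe sets, from KLF3, KLF6, KLF9 and KLF11, were at or below it and none was called.

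**Figure D1:**
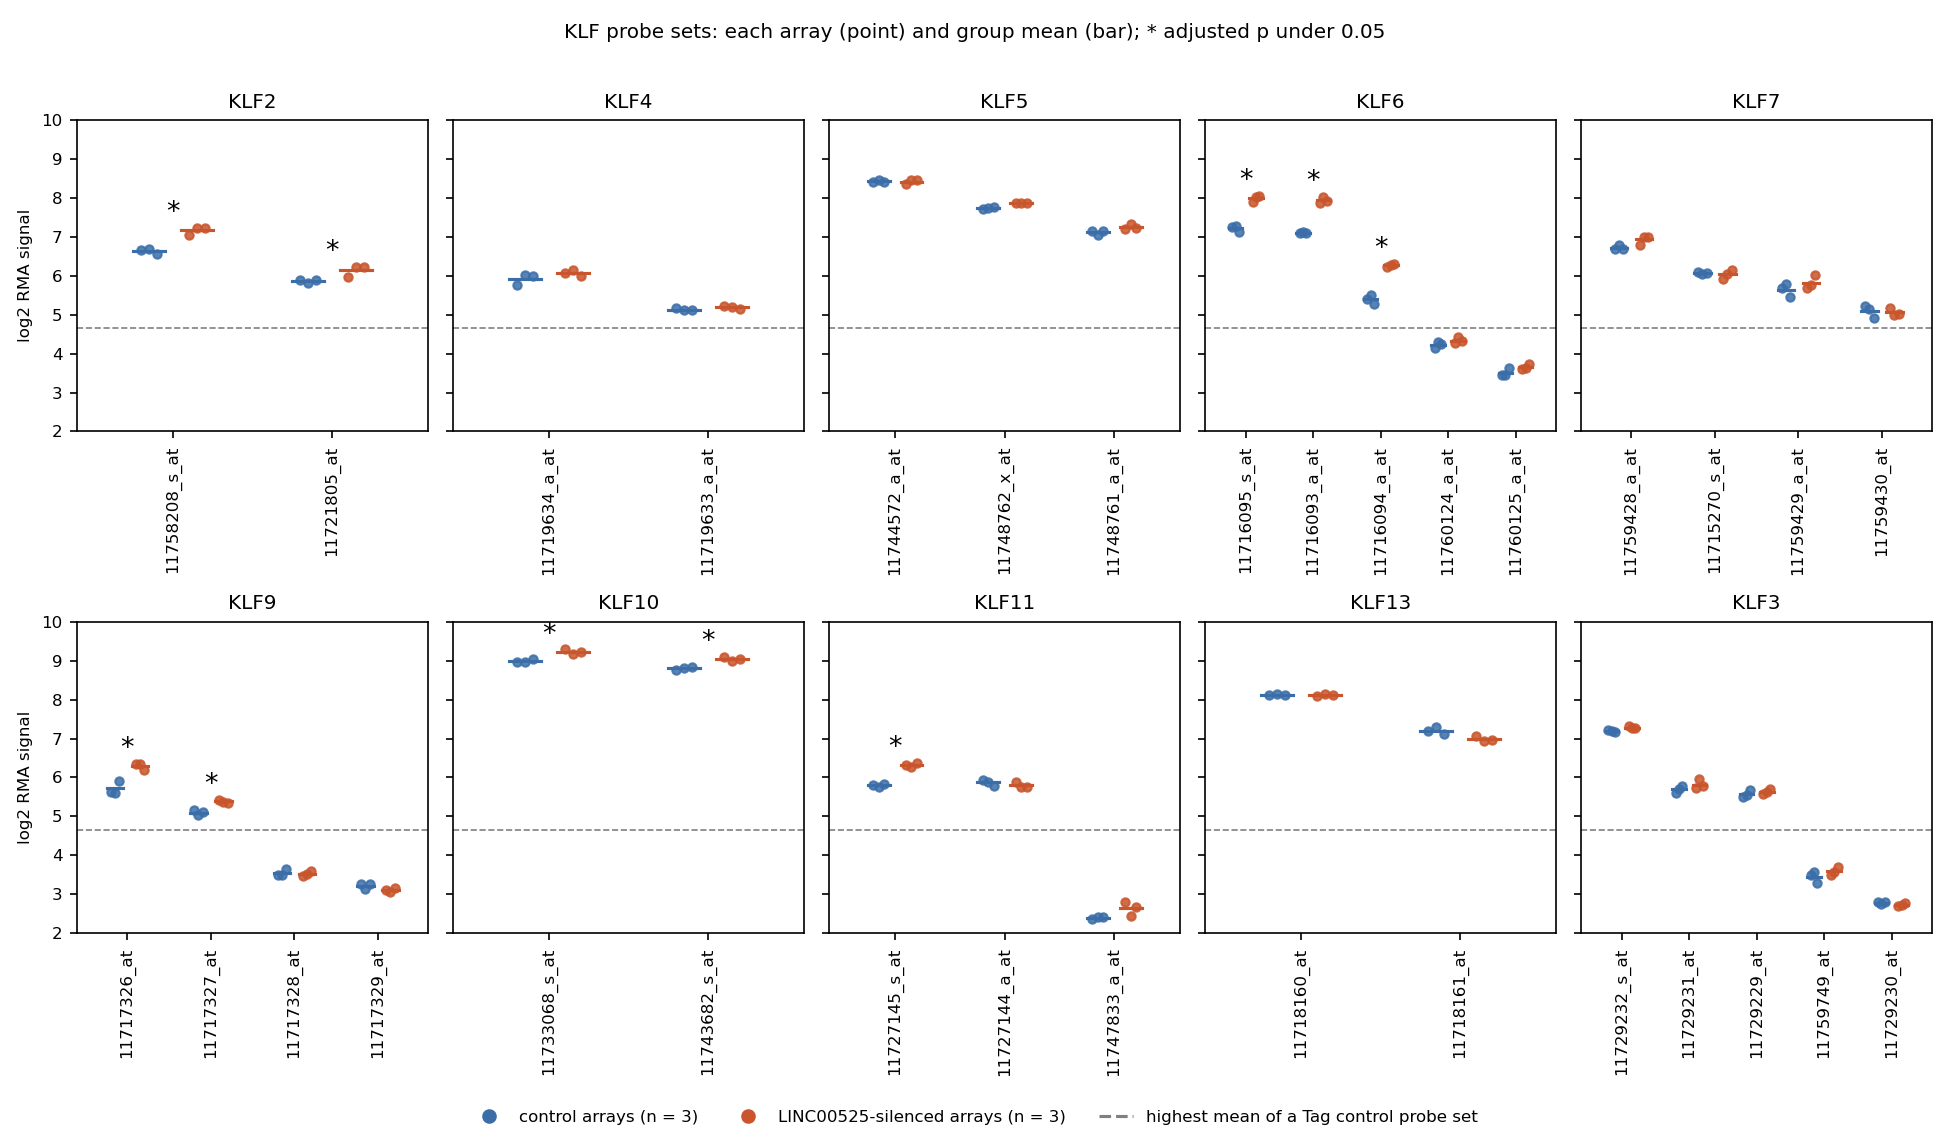
Log2 RMA signal of the 32 KLF probe sets on each of the 3 control and 3 silenced arrays (points) with group means (bars), 1 panel per gene; the dashed line is the highest Tag mean, 4.65, and an asterisk marks an adjusted p under 0.05. The 3 bright KLF6 probe sets separate the groups widely, whereas the dim KLF6, KLF9 and KLF11 probe sets lie at or below the line on both sides.

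The strongest rise was that of KLF6, a ubiquitous activator first described as a core promoter element binding protein. Its probe set 11716093_a_at read 7.10, 7.12 and 7.09 on control arrays and 7.86, 8.03 and 7.92 on silenced arrays. Every silenced value was thus well above every control value, and the difference was 0.83 ± 0.052 (1.78-fold, limma adjusted p = 7.50e-05). Probe set 11716095_s_at read 7.26, 7.29 and 7.13 against 7.91, 8.03 and 8.05, a difference of 0.77 ± 0.060 (1.71-fold, limma adjusted p = 0.000256). The dimmer 11716094_a_at read 5.40, 5.50 and 5.28 against 6.22, 6.28 and 6.31, a difference of 0.88 ± 0.062 (1.84-fold, limma adjusted p = 0.000149). In all 3 the silenced arrays lay close together and far above the controls. Leaving out any 1 array kept all 3 calls, with adjusted p no higher than 0.00217.

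KLF6 also had 2 probe sets, 11760124_a_at and 11760125_a_at, at or below the Tag level. Their differences were 0.11 (limma adjusted p = 0.315) and 0.14 (limma adjusted p = 0.222), and neither passed. With all 5 probe sets averaged per array the KLF6 difference was 0.55 ± 0.041 (limma adjusted p = 0.000121), smaller than in the 3 bright ones because the dim pair entered with equal weight.

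KLF2, known for keeping endothelial cells and T cells quiescent, rose in both of its probe sets. Probe set 11758208_s_at read 6.67, 6.70 and 6.56 on control arrays and 7.05, 7.22 and 7.23 on silenced arrays, a difference of 0.52 ± 0.064 (1.44-fold, limma adjusted p = 0.00243). The lowest silenced array, replicate 1, was still above all controls. Probe set 11721805_at read 5.89, 5.81 and 5.89 against 5.98, 6.22 and 6.22. Here silenced replicate 1 sat close to the controls, while the other two silenced arrays were clear of them. This smaller rise, 0.28 ± 0.071 (1.21-fold, limma adjusted p = 0.0463), was lost whenever an array other than silenced replicate 1 was left out, with adjusted p up to 0.150.

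The other activators gave no call. KLF4, a factor of epithelial barrier formation and of cell reprogramming, read 5.77, 6.03 and 5.99 on control arrays and 6.06, 6.16 and 6.0 on silenced arrays in 11719634_a_at, a difference of 0.14 ± 0.076 (limma adjusted p = 0.295). The groups overlapped, and the 95% confidence interval of the difference ran from -0.03 to 0.32. Its second probe set, 11719633_a_at, differed by 0.06 ± 0.045 (limma adjusted p = 0.471).

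KLF5, which promotes proliferation in many epithelia, had bright signals that moved little. Its brightest probe set, 11744572_a_at, read 8.42, 8.46 and 8.41 on control arrays and 8.36, 8.45 and 8.45 on silenced arrays, with overlapping groups and a difference of -0.01 (limma adjusted p = 0.923). Probe set 11748762_x_at read 7.71, 7.74 and 7.78 against 7.88, 7.86 and 7.87, and 11748761_a_at read 7.16, 7.05 and 7.16 against 7.20, 7.33 and 7.23. Both separated the groups upwards, each by 0.13, without passing (limma adjusted p = 0.0975 and 0.182). The former passed when arrays were re-normalized by cyclic loess (0.0497), with an intensity trend in the variance (0.0277) or with only probe sets above the Tag level tested (0.0344).

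KLF7, known from neuronal development and from adipose tissue, behaved likewise. Probe set 11759428_a_at read 6.70, 6.78 and 6.70 on control arrays and 6.80, 7.01 and 7.00 on silenced arrays, a difference of 0.21 ± 0.064 (limma adjusted p = 0.0823). All silenced arrays were above all controls, replicate 1 by little. It passed under the same alternatives as KLF5 did, with adjusted p of 0.0489, 0.0215 and 0.0401. It also passed without silenced replicate 1 (limma adjusted p = 0.0237), and in no other fit that left out an array. The remaining 3 KLF7 probe sets differed by -0.03, 0.17 and -0.04 (limma adjusted p = 0.819, 0.363 and 0.839).

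Among the SIN3A-recruiting members, KLF9, a glucocorticoid and thyroid hormone responsive factor, rose in 2 of its 4 probe sets. Probe set 11717326_at read 5.63, 5.61 and 5.91 on control arrays and 6.34, 6.34 and 6.20 on silenced arrays, a difference of 0.58 ± 0.085 (1.49-fold, limma adjusted p = 0.00558). Control replicate 3 was the high control and silenced replicate 3 the low silenced array, yet the groups did not meet. Probe set 11717327_at read 5.16, 5.03 and 5.10 against 5.42, 5.38 and 5.35, a difference of 0.29 ± 0.049 (1.22-fold, limma adjusted p = 0.0103). Both calls held when any 1 array was left out, and both were lost without variance moderation (limma, adjusted p = 0.0755 and 0.0524). The other two KLF9 probe sets were at or below the Tag level and differed by -0.02 and -0.11 (limma adjusted p = 0.882 and 0.251). Averaged over all 4, KLF9 differed by 0.18 ± 0.046 (limma adjusted p = 0.0329).

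KLF10, an early gene of transforming growth factor beta signalling also called TIEG1, had bright probe sets and a small rise in both. Probe set 11733068_s_at read 8.97, 8.97 and 9.05 on control arrays and 9.29, 9.18 and 9.23 on silenced arrays, a difference of 0.24 ± 0.048 (1.18-fold, limma adjusted p = 0.0214). Probe set 11743682_s_at read 8.75, 8.80 and 8.85 against 9.10, 8.99 and 9.05, a difference of 0.25 ± 0.049 (1.19-fold, limma adjusted p = 0.0191). In both, silenced replicate 1 was highest and the groups were separate by a narrow margin. Both calls were lost without control replicate 1, control replicate 2, silenced replicate 1 or silenced replicate 3, with adjusted p up to 0.0835 and 0.0703, and without variance moderation (0.0681 and 0.0672).

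KLF11, the close relative of KLF10 also called TIEG2, was called higher in 1 of its 3 probe sets. Probe set 11727145_s_at read 5.81, 5.75 and 5.84 on control arrays and 6.33, 6.26 and 6.37 on silenced arrays, a difference of 0.52 ± 0.048 (1.43-fold, limma adjusted p = 0.00063) that held when any 1 array was left out. Probe set 11727144_a_at, of much the same control signal, read 5.94, 5.88 and 5.79 against 5.87, 5.75 and 5.76, a difference of -0.08 ± 0.056 (limma adjusted p = 0.459) with overlapping groups. The first minus the second ran from -0.13 to 0.05 on control arrays and from 0.46 to 0.61 on silenced arrays. Their changes thus differed by 0.60 (exact permutation p = 0.1, the smallest possible; 0.263 after Benjamini-Hochberg adjustment over the 21 pairs of KLF probe sets compared). The suffix _s_at marks probes that can match more than 1 transcript, and whether these include transcripts of other genes was not tested. Whether both probe sets read the same KLF11 transcripts was not tested either. The third probe set, 11747833_a_at, was dim (14 of the 17 Tag probe sets were above it) and differed by 0.24 (limma adjusted p = 0.118). Of the fits that left out an array, it passed only without silenced replicate 2 (limma adjusted p = 0.0208).

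KLF13, which controls RANTES expression in T cells, was the member with silenced arrays below all controls in 1 probe set. Probe set 11718161_at read 7.19, 7.29 and 7.11 on control arrays and 7.06, 6.93 and 6.96 on silenced arrays, without overlap. Its difference of -0.21 ± 0.060 (95% confidence interval -0.35 to -0.08) missed the threshold (limma adjusted p = 0.0628). It passed with an intensity trend in the variance (0.0122) and with only probe sets above the Tag level tested (0.0284). The brighter 11718160_at read 8.11, 8.14 and 8.13 against 8.10, 8.15 and 8.11, a difference of -0.01 (limma adjusted p = 0.945) with overlapping groups.

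KLF3, the CTBP-binding repressor, had 5 probe sets and no call. The brightest, 11729232_s_at, read 7.21, 7.20 and 7.16 on control arrays and 7.31, 7.27 and 7.26 on silenced arrays, separate groups with a difference of only 0.09 ± 0.041 (limma adjusted p = 0.226). The other 4 differed by -0.05 to 0.14.

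**Figure D2:**
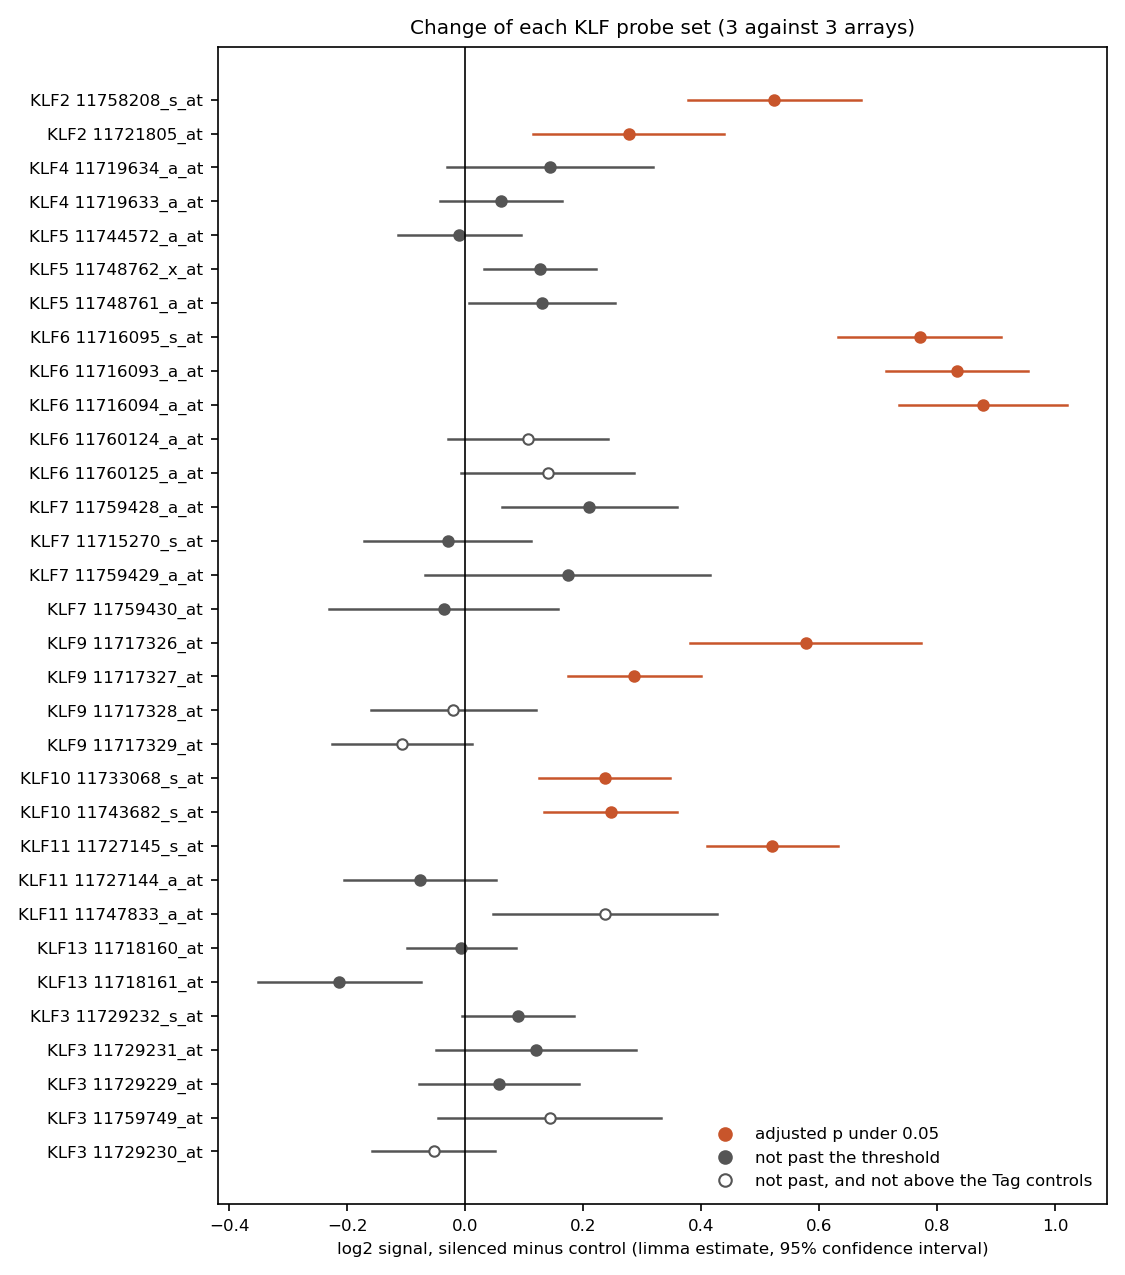
Difference of each of the 32 KLF probe sets (silenced minus control, log2; point, limma estimate; line, 95% confidence interval), 3 against 3 arrays. The KLF6 estimates of 0.77, 0.83 and 0.88 stand furthest to the right, and the KLF13 probe set at -0.21 furthest to the left.

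Differences between probe sets of a gene were compared in pairs by exact permutation. With 3 against 3 arrays no pair could pass the threshold, so this test cannot decide whether probe sets of a gene changed differently. Of the 21 within-gene pairs compared among probe sets above the Tag level, 8 had differences that separated the groups, as 22.4% of the 28929 such pairs over all genes did. Separation is the strongest outcome 3 against 3 arrays can give (exact permutation p = 0.1; 0.263 adjusted over the pairs). These were 2 pairs of KLF5 and 1 each of KLF2, KLF6, KLF7, KLF9, KLF11 and KLF13. The KLF11 pair differed most, 0.60, followed by the KLF9 pair at 0.29.

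The size of these changes depended on the reference for scaling. RMA makes the arrays' distributions alike, and a re-normalization by cyclic loess gave 12 KLF probe sets higher and 0 lower (2706 and 1885 over all, against 2263 and 2590 as deposited). Scaling to the poly-A spike-ins moved the median of all probe sets to -0.14 and left 7 KLF probe sets higher and 4 lower (1256 and 17199 over all). Scaling to the hybridization controls moved that median to -0.29 and left 6 higher and 11 lower (557 and 40238 over all). The 3 KLF6 probe sets (0.49, 0.55 and 0.60), the KLF11 rise (0.24) and the larger KLF2 and KLF9 rises were still called under hybridization scaling. Under it KLF10 turned to -0.04 and -0.03, the smaller KLF2 probe set came to -0.0048, the smaller KLF9 probe set came to 0.0052, and KLF13 11718161_at passed as lower (limma adjusted p = 7.83e-06). Poly-A scaling likewise ended the calls of both KLF10 probe sets (0.11 and 0.12) and of the smaller KLF2 one (0.15). Scaling to either control set shifted the differences of all probe sets by the same amount. The place of KLF10 and the smaller KLF2 and KLF9 rises above the typical probe set was thus fixed and says nothing further. Each array was made from 100 ng of total RNA, so none of these scalings measures RNA per cell.

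**Figure D3:**
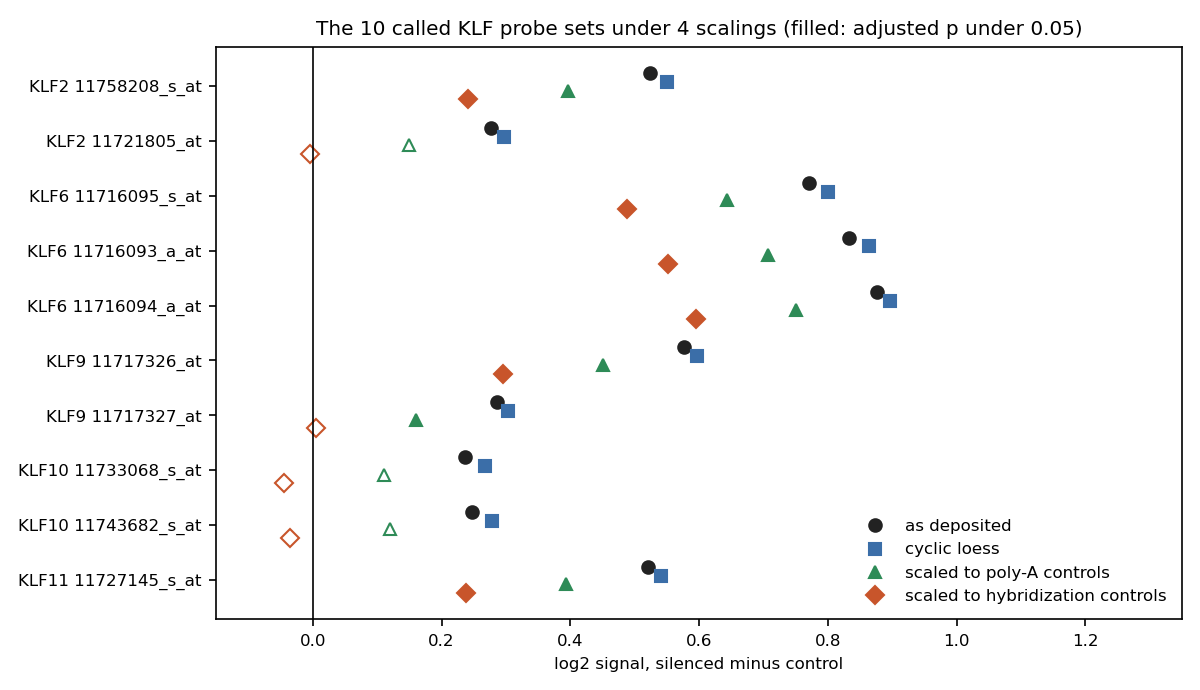
The 10 called KLF probe sets (silenced minus control, log2) as deposited and after cyclic loess, scaling to poly-A spike-ins and scaling to hybridization controls; filled symbols have an adjusted p under 0.05. KLF6 lies right of 0 under every scaling, whereas KLF10, 1 KLF2 probe set and 1 KLF9 probe set lie close to or below 0 with the hybridization controls.

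To show the sequence of the members that rose, the stretch just before their annotated starts was set beside that of members that gave no call. RefSeq windows (GRCh38.p14) were used for KLF2, KLF4, KLF5, KLF6, KLF7, KLF9, KLF11 and KLF13, 13 windows in 8 genes, each the 250 bases before a start. The sequences shown are those of 3 genes with a rise, KLF2 (chr19:16324576-16324825, plus strand), KLF6 (chr10:3785210-3785459, minus strand) and KLF9 (chr9:70414658-70414907, minus strand), and of 2 genes without one, KLF4 (chr9:107489770-107490019, minus strand) and KLF13 (chr15:31326585-31326834, plus strand). Each is written 5′ to 3′ along the gene, and capitals mark a match on either strand to the GC box GGGCGG, the CACCC box CACCC, the cAMP response element core TGACG, the AP-1 site TGANTCA, the CArG box or the TATA box TATAAA.
KLF2: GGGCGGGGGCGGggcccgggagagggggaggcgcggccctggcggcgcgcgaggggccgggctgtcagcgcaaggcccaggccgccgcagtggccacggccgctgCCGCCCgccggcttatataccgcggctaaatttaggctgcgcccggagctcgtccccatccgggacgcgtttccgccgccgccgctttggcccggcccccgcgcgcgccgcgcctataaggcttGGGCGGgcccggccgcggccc
KLF6: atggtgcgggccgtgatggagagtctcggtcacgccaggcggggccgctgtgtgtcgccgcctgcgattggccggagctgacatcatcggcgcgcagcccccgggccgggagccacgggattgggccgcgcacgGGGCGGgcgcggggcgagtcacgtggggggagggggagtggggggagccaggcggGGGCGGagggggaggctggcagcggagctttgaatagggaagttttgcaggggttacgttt
KLF9: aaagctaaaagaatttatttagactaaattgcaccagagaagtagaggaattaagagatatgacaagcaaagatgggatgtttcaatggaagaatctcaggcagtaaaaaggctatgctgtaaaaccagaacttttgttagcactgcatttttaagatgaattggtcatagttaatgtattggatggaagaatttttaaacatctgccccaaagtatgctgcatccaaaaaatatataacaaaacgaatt
KLF4: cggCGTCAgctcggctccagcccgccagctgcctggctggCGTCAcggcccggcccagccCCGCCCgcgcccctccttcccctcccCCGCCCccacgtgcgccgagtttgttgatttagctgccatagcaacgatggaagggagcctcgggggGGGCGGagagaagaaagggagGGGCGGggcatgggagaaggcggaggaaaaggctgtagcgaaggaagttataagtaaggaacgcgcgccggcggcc
KLF13: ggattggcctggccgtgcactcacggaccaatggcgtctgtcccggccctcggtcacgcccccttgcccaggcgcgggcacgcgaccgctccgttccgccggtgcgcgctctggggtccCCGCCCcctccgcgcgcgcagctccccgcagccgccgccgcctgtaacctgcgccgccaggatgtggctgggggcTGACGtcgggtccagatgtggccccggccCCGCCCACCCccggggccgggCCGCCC
The KLF2 stretch was 80% G and C with 4 GC boxes, and the KLF6 stretch 72.4% with 2. The KLF9 stretch, at 32.4%, held none of these motifs. KLF4, with no call, also had 4 GC boxes and a pair of TGACG matches, and KLF13 had 3 GC boxes with 1 CACCC and 1 TGACG. GC boxes thus stood before members with a rise and before members without one.

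A GC box stood in 8 of the 13 KLF windows and in 42.6% of the 35116 windows of all genes. CACCC was found in 6 KLF windows and 54.7% of all, TGACG in 4 and 21.2%, the CArG box in 1 (KLF7) and 1.16%, TATAAA in 1 (KLF5) and 10.7%, and the AP-1 site in 0 and 6.57%. A KLF11 window held 6 GC boxes, more than any other KLF window. Matches were counted even where they overlap, as a GC box and the CACCC of KLF13 do. A match here is a match of letters and no measure of binding.

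The rest of the family gave no call in limma. The members were chosen with earlier results of these data known, so their contrast with the rest is not an independent test. Of the 8 KLF genes that are not members, 7 were measured by 18 probe sets; 0 were higher and 0 lower, 1 was higher and 0 lower at an unadjusted p under 0.05, and the median difference was -0.01. KLF12 and KLF16 were the 2 with a signal above the Tag level, whereas all 10 members had one. KLF16 differed by -0.03 to 0.06 in its 4 probe sets above that level. The 9 SP genes gave 0 calls in 27 probe sets as well, with 0 higher and 3 lower at an unadjusted p under 0.05 and a median of -0.04. Over all probe sets tested, 10.2% were higher and 14.5% lower at that threshold. Without variance moderation, with a variance trend, after cyclic loess and when any 1 array was left out, both lists again had 0 calls. Scaling to the hybridization controls called 16 of the 18 and 26 of the 27 as lower, and poly-A scaling 2 and 10. Of all 49293 probe sets, these scalings called 40238 and 17199 as lower.

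KLF partners had a few calls, in both directions. Among 11 corepressor and coactivator genes, read by 38 probe sets, 1 probe set was higher (2.63%) and 3 were lower (7.89%). Of all probe sets tested, 4.59% were higher and 5.25% lower. The higher one was of SIN3A, the scaffold bound by KLF9, KLF10, KLF11 and KLF13 (0.20, limma adjusted p = 0.0455, 1 of 3 probe sets). HDAC1, the deacetylase of that complex, fell by 0.16 and 0.19 (limma adjusted p = 0.0468 and 0.0287) in 2 of 3 probe sets, and the acetyltransferase CREBBP fell by 0.25 (limma adjusted p = 0.0464) in 1 of 5. Every one of these calls was lost in at least 5 of the 6 fits that left out an array, and SIN3A turned to -0.08 under hybridization scaling.

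Known regulators of KLF genes and proteins went both ways: of 62 probe sets in 15 genes, 4 were higher (6.45%) and 9 lower (14.5%). The shares over all probe sets tested were 4.59% and 5.25%. SMAD3, the transforming growth factor beta effector that acts upstream of KLF10 and KLF11, rose in 3 of its 5 probe sets, by 0.24, 0.43 and 0.51 (limma adjusted p = 0.0229, 0.0018 and 0.00147). Its probe set 11754091_s_at read 7.48, 7.48 and 7.62 on control arrays and 7.97, 8.05 and 8.08 on silenced arrays, well apart. With hybridization scaling the smallest of the 3 turned to -0.04 and the next, at 0.15, no longer passed. The smallest was also lost without silenced replicate 2 or 3 or any 1 control. NR3C1, the glucocorticoid receptor, which activates KLF9 transcription, fell in 8 of its 10 probe sets, by up to 0.30. Of those 8 calls, 4 held when any 1 array was left out. SMAD4 fell by 0.27 in 1 of 7 (limma adjusted p = 0.0315) and MEF2D, an activator of KLF2, rose by 0.17 in 1 of 6 (limma adjusted p = 0.0462). Both calls were lost in at least 5 of the 6 fits that left out an array, and MEF2D came to -0.11 under hybridization scaling.

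Among 16 genes described elsewhere as KLF targets, 6 of 47 probe sets were higher (12.8%) and 1 lower (2.13%), with a median of 0.05. All probe sets together had 4.59% higher and 5.25% lower, with a median of -0.01. CDKN1A, the p21 inhibitor of the cell cycle, rose in both probe sets. The brighter, 11715388_s_at, read 9.56, 9.57 and 9.48 on control arrays and 10.00, 10.09 and 10.18 on silenced arrays, a difference of 0.55 (limma adjusted p = 0.00105), and the other differed by 0.60 (limma adjusted p = 0.000673). All silenced arrays were far above all controls, and both calls held under every scaling. TXNIP, an inhibitor of thioredoxin, rose by 0.65 and 0.44 in 2 of 5 probe sets (limma adjusted p = 0.00553 and 0.0114), the second dimmer than the brightest Tag probe set in both groups and the first in control cells. THBD, the anticoagulant thrombomodulin known as a KLF2 target, rose by 0.36 in 1 of 2 (limma adjusted p = 0.00583). Under hybridization scaling the smaller TXNIP rise and that of THBD no longer passed. MAOA, whose promoter KLF11 binds, rose by 0.22 in 1 of 4 (limma adjusted p = 0.0232; -0.06 with hybridization scaling). SMAD7, an inhibitor of transforming growth factor beta signalling that KLF10 and KLF11 repress, fell by 0.22 in 1 of 3 (limma adjusted p = 0.0323). The MAOA and SMAD7 calls were each lost in 5 of the 6 fits that left out an array. Whether any KLF protein was bound at these genes was not measured.

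**Figure D4:**
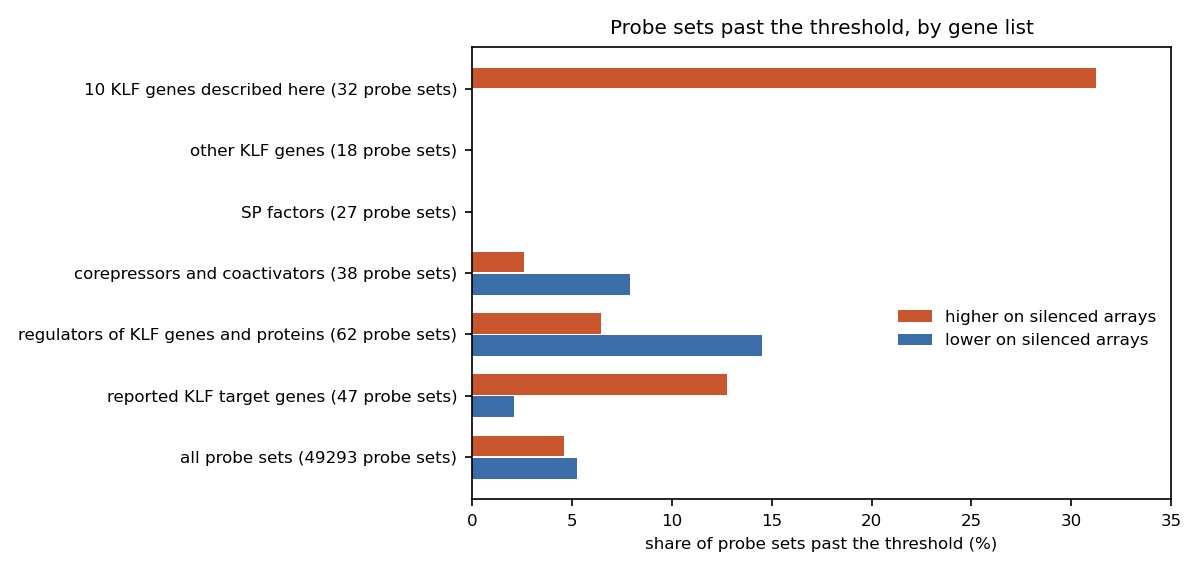
Share of probe sets called higher and lower (%, adjusted p under 0.05) for the 10 KLF genes, the other lists of KLF-related genes and all probe sets tested. The KLF bar for higher calls reaches 31.2% against 4.59% for all probe sets, while the other KLF genes and the SP factors have no call in either direction. The 10 KLF genes were chosen with earlier results of these data known, so this contrast is not an independent test.

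The probe sets most like 3 of the rising members were found by the root mean square difference of centred log2 values over the 6 arrays, among 25520 probe sets. For KLF6 (11716095_s_at) they were those of HLA-B (0.0293), STC1 (0.0356) and ZNFX1 (0.0482), where the median probe set differed by 0.405. For KLF11 (11727145_s_at) they were TGM2 (0.0203), SLC25A37 (0.0306) and TFPI (0.0334), with a median of 0.281. For KLF2 (11758208_s_at) they were ARHGAP5 (0.0248), PLAUR (0.0304) and CDKN1A (0.0339), with a median of 0.287. Since the likeness covers 2 groups of 3 arrays, it mostly says that these probe sets rose by about the same amount.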

How the data were processed

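The authors deposited log2 values of 49372 probe sets on 6 arrays, made from 100 ng of total RNA each. Per the submitters' processing notes they used RMA (background correction, quantile normalization, summarization of probes); software and version: not given in the sources used here. Array medians were 5.10 to 5.11, so nothing was normalized again. Quantile normalization removes changes common to most genes, and signals near background understate differences. The number of arrays, 3 a group, limits the precision.

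The platform annotation supplied the gene names: 44994 probe sets had 1 symbol, 1832 several and 2546 none listed. No probe positions were used. The 79 control probe sets were left out, and 49293 were tested with limma 3.58.1 in R 4.3.3 (lmFit, eBayes, 2-sided, no covariate, Benjamini-Hochberg over all). The fit was checked on simulated data. Alternatives changed the scaling, variance model, filter, gene summary, probe set suffixes, replicate block and arrays used. Figures were drawn with matplotlib 3.10.9.

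The members, the gene lists and the rule for naming genes (every KLF probe set, every called probe set of a list, and the 3 nearest probe sets by likeness) were chosen with earlier results of these data known.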

Additional observations from a re-analysis of the deposited data

How the results depend on the processing

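The KLF6 rises, the larger KLF2 and KLF9 rises and the KLF11 rise kept their direction under the alternatives that kept their probe set. Leaving out _s_at and _x_at probe sets removed the larger KLF2 rise, 1 of the 3 KLF6 rises, both KLF10 rises and the KLF11 rise. With 10 KLF probe sets higher and 0 lower in the reported fit, leaving out 1 array at a time gave 7 to 10 higher and 0 lower. There were 6 higher and 11 lower with hybridization scaling, 4 lower with poly-A scaling, 5 higher (of KLF2, KLF6 and KLF11, none of KLF9 or KLF10) without variance moderation, 1 lower with a variance trend and 1 lower with only probe sets above the Tag level. Taking 1 value per gene gave 5 genes higher, by the brightest probe set as by the average, and leaving out _s_at and _x_at probe sets gave 5 probe sets higher, of KLF2, KLF6 and KLF9, and none of KLF10 or KLF11.

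Over all probe sets, 2263 were higher and 2590 lower. Higher calls numbered 557 with hybridization scaling, 1256 with poly-A scaling, 1109 without moderation, 1046 genes by the brightest probe set, 1086 genes by the average and 1461 without _s_at and _x_at. Lower calls numbered 40238, 17199, 1186, 1239, 1425 and 1533 in that order, 4760 with a variance trend and 4070 with only probe sets above the Tag level. Leaving out 1 array gave 1313 to 1803 higher and 902 to 1890 lower.

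Arrays of the same replicate number shared little deviation from their group means, with correlations of 0.0929, 0.0624 and -0.0072. This does not show whether they were paired in the experiment. With a replicate block, 9 KLF probe sets were higher (11721805_at of KLF2 was lost, adjusted p = 0.0740, and no other KLF call) and 1594 of all probe sets were lower.

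Uncalled or weakly called values changed sign under scaling. Hybridization scaling gave -0.0048 for KLF2 11721805_at, -0.22, -0.19, -0.16 and -0.14 for KLF3, -0.22 and -0.14 for KLF4, -0.15 for both KLF5 probe sets that had been higher, -0.17 and -0.14 for the dim KLF6 pair, -0.11 and -0.072 for KLF7, -0.045 and -0.035 for KLF10 and -0.045 for the dim KLF11 probe set. Poly-A scaling gave -0.070, -0.036 and -0.0064 for KLF3, -0.066 for KLF4 and -0.020 for KLF6. Loess gave 0.022 for KLF5 11744572_a_at and 0.025 for KLF13 11718160_at, and the KLF5 average was 0.082. Leaving out 1 array moved KLF5 11744572_a_at over -0.025 to 0.02, KLF7 11715270_s_at over -0.087 to 0.028, KLF7 11759430_at over -0.12 to 0.027, KLF9 11717328_at over -0.055 to 0.035 and KLF13 11718160_at over -0.022 to 0.0033. The causes were not tested. Background correction and slide as a block were not run, because they need scanner files, which were not used here. Signals near the Tag level (7 KLF probe sets) limit what the array can show.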
